A study of Mus musculus with 8 samples.

Results

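Fatty acid oxidation is represented here by 9 genes of 21883 protein-coding genes examined: Cpt1a, Cpt2, Acadvl, Acadl, Acadm, Hadha, Pdk4, Angptl4 and Plin2. They are a list of names, drawn up when earlier results of these data were known. Each gene's locus was its body in the RefSeq annotation of GRCm38.p6 with 50 kb added on either side. Peaks of the histone H3 acetylation marks H3K27ac and H3K9ac were read within 1 kb of the gene ends, in the rest of the body and in the flanks. The assay was CUT&Tag: a transposase tethered by an antibody cuts and tags the DNA beside the acetylated histone, and the released DNA is sequenced. The material was small intestinal crypts, labelled as epithelial cells, from male C57BL/6J mice aged 9 weeks. The Fed and Fast groups without tetracycline were mice fed or fasted for 24 h, and the Fed and Fast groups with tetracycline had also received this antibiotic for 21 days. Each of these 4 groups gave 1 sample per mark and each sample 2 peak lists, so every mark had 8 lists, 4 Fed and 4 Fast. The comparisons ask whether fasting, in mice with or without an antibiotic that acts on gut bacteria, goes with a different acetylation of these loci.

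Mitochondrial fatty acid oxidation begins when carnitine palmitoyltransferases, encoded by Cpt1a and Cpt2, bring long-chain fatty acids into the mitochondrion. Acyl-CoA dehydrogenases of different chain-length preference and the trifunctional protein, whose alpha subunit is encoded by Hadha, then shorten the chain in repeated rounds. During fasting, fatty acids released from fat tissue become a main fuel, and the PPAR nuclear receptors, which sense fatty acids, are known to activate Cpt1a, Pdk4, Angptl4, Plin2 and several dehydrogenase genes. In intestinal stem and progenitor cells fasting is known to raise fatty acid oxidation. H3K27ac is found at active enhancers and promoters, and H3K9ac mainly at active promoters.

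The lists differed in size, which bears on every value below. H3K27ac lists held 32392 to 68545 peaks covering 33.1 to 64.2 Mb, and H3K9ac lists 17249 to 99050 peaks covering 16.5 to 47.3 Mb. In 1 H3K27ac list (Fast 1 without tetracycline) and in 3 H3K9ac lists (Fast 1 without, and both Fast lists with tetracycline), over 10% of peaks were exactly 200 bp wide. In the other 12 lists this share was at most 1.73%. Read depth is unknown. Whether the lists numbered 1 and 2 came from different mice is not stated, so the spread given is that between lists, which may be technical. Of 16 crypt epithelium markers, 10 to 15 had a gene-end peak in each H3K27ac list and 8 to 14 in each H3K9ac list. Of 16 markers of immune cells and other tissues, 3 to 7 and 1 to 6 had one. Both marker counts reached higher in the Fast lists: 11 to 15 crypt markers against 10 to 12 in Fed for H3K27ac, and 11 to 14 against 8 to 12 for H3K9ac. Of the other markers, 4 to 7 counted in Fast and 3 to 5 in Fed (H3K27ac), or 2 to 6 and 1 to 5 (H3K9ac). In the crypt list, Vil1, Epcam, Cdx1, Cdx2, Krt8, Krt18, Krt19, Cdh17, Fabp2 and Alpi had a gene-end H3K27ac peak in 8 lists. Lgr5, Defa24 and Muc2 had one in 1 list, Ascl2 in 3, Lyz1 in 4 and Olfm4 in 5. For H3K9ac, Muc2 had one in 0 lists, Defa24 in 1, Lgr5 and Ascl2 in 2, Lyz1 in 4 and Olfm4 in 6. The lymphocyte marker Cd79a had a gene-end H3K27ac peak in 8 lists, and Apoa2 had one in 8, with H3K9ac in 7. Alb, Pecam1, Cdh5 and Neurod6 had no gene-end peak of either mark in any list. The part of the Fast and Fed marker differences in the results was not tested.

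All 9 genes carried H3K27ac at a gene end in all 8 lists, against 33.6% of all protein-coding genes. For H3K9ac 6 of the 9 genes did so, against 21.1% of all genes. The 3 exceptions were Pdk4, whose end was without a peak in 1 Fast list, Acadm, without one in 2 Fast lists, and Angptl4, without one in 1 Fed list. The top gene-end H3K27ac peak of Cpt1a ranked first of the 9 alone in 4 lists, and in the other 4 it shared the first rank with 1 to 5 of the others at the same score of 3100. Cpt2 was in this tie in all 4 of those lists, and Acadm, Hadha and Plin2 in 2 each. Many strong peaks share that score, so it does not order them. The Cpt1a peak lay at percentile 96.4 to 99.9 of the scores within a list. For H3K9ac, Cpt2 ranked first in 5 lists and Hadha in 3. Acadvl ranked 8 or 9 of the 9 for H3K27ac. Scores are those the authors gave, and no score was compared between lists.

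A start site was known for 8 of the 9 genes, from a RefSeq promoter table for GRCm38.p6 that was matched by gene ID (not Angptl4). An H3K27ac peak lay over the start site of all 8 in all 8 lists. H3K9ac covered it in all 8 lists too, except at Pdk4 (missing in 1 Fast list), Acadm (missing in 2 Fast lists) and Acadl (missing in 1 Fed list). The 250 bases before the start are shown for 4 genes. The H3K27ac peak of Cpt1a ranked first, alone or tied, in every list, and H3K27ac peaks covered more of the start-site region of Pdk4 in every Fast list. Hadha shares its upstream stretch with the divergent gene Hadhb, and Plin2 was the 1 gene with a match to the type of repeat bound by PPAR receptors. Each stretch is printed 5′ to 3′ on the strand of its gene, and capitals mark matches on either strand to CCAAT, to GGGCGG (the GC box bound by Sp factors) or to the PPAR type of repeat.
Cpt1a, chr19:3323051-3323300, + strand: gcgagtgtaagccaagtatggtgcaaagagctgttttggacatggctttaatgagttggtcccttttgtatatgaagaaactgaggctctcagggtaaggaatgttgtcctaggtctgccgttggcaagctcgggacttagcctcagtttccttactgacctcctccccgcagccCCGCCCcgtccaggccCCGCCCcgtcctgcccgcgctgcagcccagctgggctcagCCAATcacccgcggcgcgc
Pdk4, chr6:5496279-5496528, - strand: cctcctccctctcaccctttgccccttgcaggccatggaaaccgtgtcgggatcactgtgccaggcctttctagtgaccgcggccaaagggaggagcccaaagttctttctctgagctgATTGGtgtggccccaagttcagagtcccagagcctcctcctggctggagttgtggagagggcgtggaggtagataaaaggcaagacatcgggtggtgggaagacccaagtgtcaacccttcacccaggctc
Hadha, chr5:30154981-30155230, - strand: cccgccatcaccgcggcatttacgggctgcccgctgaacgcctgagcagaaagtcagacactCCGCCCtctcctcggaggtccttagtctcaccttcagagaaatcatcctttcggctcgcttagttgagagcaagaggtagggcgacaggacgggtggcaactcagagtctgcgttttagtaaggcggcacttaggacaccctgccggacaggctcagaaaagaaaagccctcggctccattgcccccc
Plin2, chr4:86670060-86670309, - strand: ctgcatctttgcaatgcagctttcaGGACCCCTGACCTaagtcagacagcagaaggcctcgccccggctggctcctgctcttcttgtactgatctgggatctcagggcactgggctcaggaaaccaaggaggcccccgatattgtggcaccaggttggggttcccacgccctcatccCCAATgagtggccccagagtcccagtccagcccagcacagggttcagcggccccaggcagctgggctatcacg
The PPAR type of repeat was searched as 2 copies of AGGTCA separated by 1 base, with at most 2 mismatches, on both strands of the 300 bases from 250 before to 50 after each start. It was found in 3.86% of 32841 promoters and, of the 8 genes, at Plin2, with 2 mismatches and its first base at position -225. The forkhead motif TGTTTAC (3.65% of promoters) and the cyclic AMP response element TGACGTCA (1.79%) matched in none of the 8. CCAAT occurred in 37.4% and GGGCGG in 35.7% of all promoters. In the printed stretches Cpt1a held 2 GC boxes and 1 CCAAT, Hadha 1 GC box, and Pdk4 and Plin2 1 CCAAT each. The 300-base promoters of the 8 genes had a GC content of 50.7% to 70.3%, against a median of 52.7% over all promoters. These matches describe the letters of the windows and nothing about what binds there.

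Fasting was compared through the length of each locus covered by peaks. The difference is that of mean log2(covered bp + 200), Fast minus Fed, averaged over both tetracycline states, with an exact permutation of the feeding labels within each state. With 36 arrangements the smallest possible two-sided p is 0.0556, so no gene could pass 0.05 in this test, and genes are described by whether all 4 Fast lists lay above all 4 Fed lists. For H3K27ac this held at 3 of the 9 genes, Hadha, Pdk4 and Acadl, against 5.75% of 20148 genes with a peak in their locus. None of the 9 had all Fast lists below all Fed lists, against 0.139% of genes. The median difference over the 9 was 0.43, against 0.26 over all genes, of which 80.9% were positive. All 9 differences were positive on this scale, but 2 were not after scaling to each list's total covered length, where Acadm stood at -0.048 and Acadvl at -0.085.

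**Figure D1:**
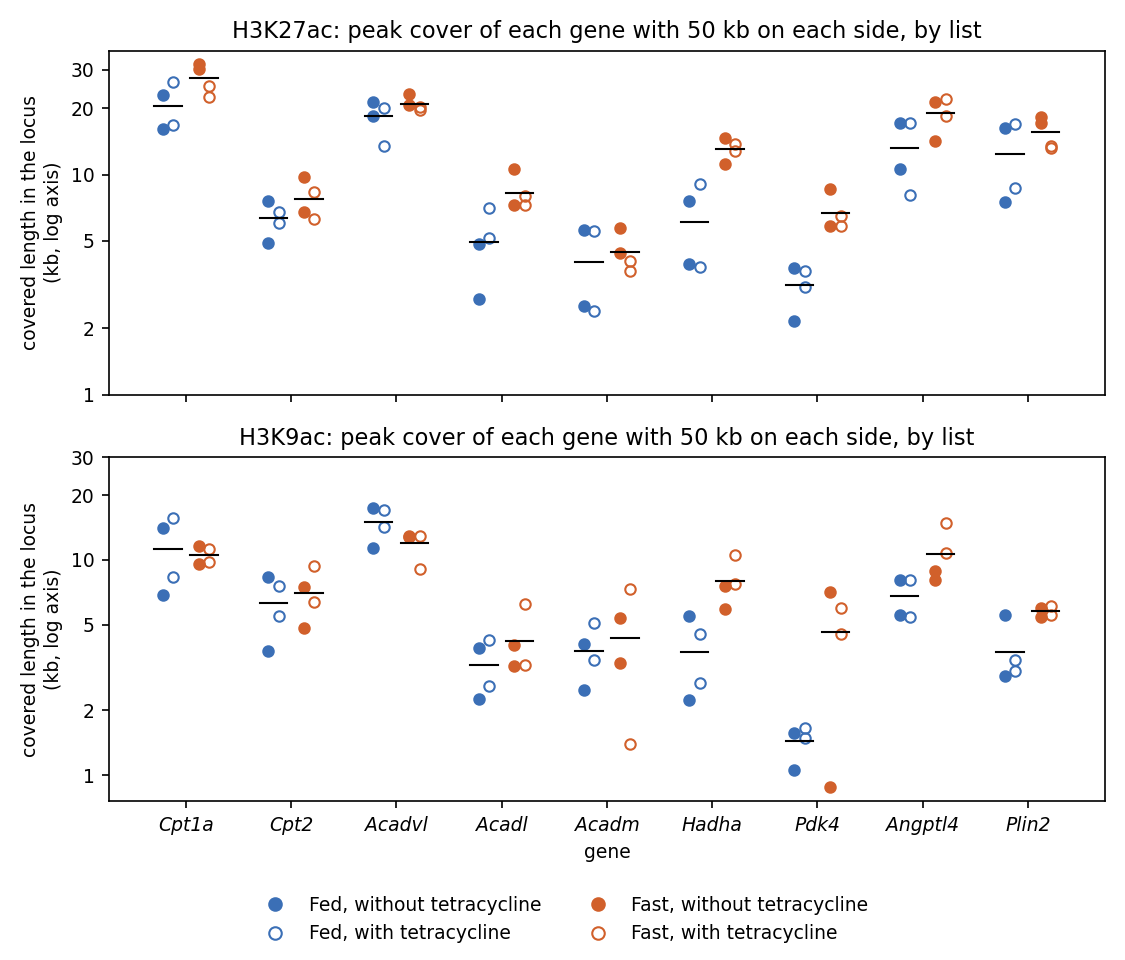
Covered length in kb (log axis) of each gene's locus, body with 50 kb on each side, in every peak list; points are lists, filled without and open with tetracycline, blue Fed and orange Fast, and black lines are means of 4 lists. For H3K27ac the Fast points of Acadl, Hadha and Pdk4 all lie above the Fed points; for H3K9ac this holds for Hadha alone, and 1 Fast list of Pdk4 lies at 0.881 kb, below its Fed lists.

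For H3K9ac, the 4 Fast lists lay above the 4 Fed lists over the whole locus at 1 of the 9, Hadha, against 3.56% of 21396 genes, and below at none, against 0.257%. The median difference of the 9 was 0.34, and so was that of all genes. Of the 9, 7 were positive, against 76.9% of all genes, and 3 of those 7 turned negative after scaling to each list's covered length: Cpt2 (-0.26), Acadl (-0.085) and Acadm (-0.41).

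That scaling shifts all genes. The H3K27ac median of all loci went from 0.26 to 0.0053 with it, and the H3K9ac median from 0.34 to -0.043. The H3K27ac median of the 9 moved from 0.43 to 0.14 with the scaling, and their H3K9ac median moved from 0.34 to -0.085. Over all genes, 1158 H3K27ac loci were longer and 28 shorter in every Fast list as deposited, and 731 longer and 1090 shorter after scaling; for H3K9ac the counts were 761 and 55, then 513 and 1006. After scaling, Hadha was the 1 gene of the 9 still separate for H3K27ac (3.63% of genes), with a difference of 0.89. Pdk4 stood at 0.77 and Acadl at 0.49, with overlapping lists. None of the 9 was separate for H3K9ac after scaling (2.4% of genes).

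The carnitine shuttle genes Cpt1a and Cpt2 had both marks over their start sites in every list, and over all 8 lists neither had separate feeding states. Cpt1a encodes the outer-membrane enzyme that controls the entry of long-chain fatty acids (chr19:3322326-3385735), and its locus had the longest mean H3K27ac cover of the 9. The 4 Fed lists (in the order list 1 and 2 without, then list 1 and 2 with tetracycline, as in all that follows) covered 16.1, 22.9, 16.8 and 26.3 kb of it, and the 4 Fast lists 30.3, 31.9, 25.3 and 22.5 kb. Fed and Fast lists overlapped only in the mice given tetracycline, and the difference was 0.43 (SE 0.21; exact permutation p = 0.167); it was 0.69 in mice without and 0.18 in mice with tetracycline. H3K9ac covered 6.87, 14.1, 8.34 and 15.8 kb in Fed and 9.55, 11.7, 9.79 and 11.3 kb in Fast, a difference of -0.014 (SE 0.35). The Fast lists of this mark lay inside the range of the Fed lists. Besides the gene-end region, an H3K27ac region at chr19:3294811-3299547, centred at -26.1 kb (negative distances lie upstream of the start site), was in all 8 lists. In 6 lists the top peaks of both regions had the same score, and in the other 2 the gene-end peak had the higher one. The start-site peak was 2818 to 8031 bp wide in Fed and 5228 to 8528 bp in Fast.

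Cpt2 encodes the inner-membrane partner of Cpt1a (chr4:107903982-107923589). Its H3K27ac cover was 4.91, 7.61, 6.01 and 6.78 kb in Fed and 9.75, 6.78, 8.30 and 6.29 kb in Fast, a difference of 0.29 (SE 0.23; exact permutation p = 0.278). Its H3K9ac difference was 0.18 (SE 0.36). The region at the start of the gene, chr4:107920020-107924138, was in all 8 lists and held the top-scoring H3K27ac peak of the locus in each. The start-site peak was 3835 to 3999 bp wide in the Fast lists and 1183 to 4062 bp in the Fed lists, with overlap. Within 1 kb of the ends the difference was -0.011, where peaks wider than the window cannot show their width.

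Of the 3 acyl-CoA dehydrogenase genes among the 9, Acadl was the 1 with separate lists. It encodes the long-chain enzyme (chr1:66830839-66863309). Its H3K27ac cover was 2.71, 4.82, 5.13 and 7.06 kb in Fed and 7.24, 10.6, 7.23 and 7.96 kb in Fast, a difference of 0.78 (SE 0.27; exact permutation p = 0.0556, adjusted p = 0.583 over all genes by Benjamini-Hochberg). The nearest lists of the 2 states, 7.06 and 7.23 kb, were close, and the difference was 1.23 without and 0.33 with tetracycline. By part, the difference was 0.98 in the flanks, where the lists were separate, and 1.22 in the body and 0.17 at the gene ends, where they overlapped. Over the locus the separation was lost with peaks of at least 500 bp alone and with flanks of 25 kb. The flank region at chr1:66895160-66896746, centred at -32.6 kb and in no other protein-coding gene, was covered over 0, 741, 788 and 924 bp in Fed and 1120, 1377, 1117 and 1215 bp in Fast. This region was picked out after its values were seen. H3K9ac over the Acadl locus was 2.26, 3.91, 2.60 and 4.23 kb in Fed and 3.21, 4.04, 6.28 and 3.26 kb in Fast, with overlap.

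Acadm, the medium-chain enzyme (chr3:153922353-153944643), and Acadvl, the very-long-chain enzyme (chr11:70010183-70015428), showed no separation. Acadm had H3K27ac over 2.52, 5.62, 2.40 and 5.52 kb in Fed and 4.41, 5.71, 3.65 and 4.03 kb in Fast, a difference of 0.23 (SE 0.41). Here the 2 lists of a Fed group differed more than the feeding states did, and leaving out the list Fed 1 with tetracycline took the difference to -0.056. Its H3K9ac gene-end cover was 1.21, 1.25, 1.36 and 1.48 kb in Fed and 1.41, 0, 1.27 and 0 kb in Fast, so both Fast lists numbered 2 lacked the peak that all other lists had. The Acadvl locus is gene-dense, with 8 other genes and an end of Dvl2 74 bp from its own, so its cover cannot be assigned to Acadvl alone. It held 18.5, 21.3, 13.5 and 20.2 kb of H3K27ac in Fed and 20.6, 23.3, 20.2 and 19.7 kb in Fast (difference 0.21, SE 0.16). For H3K9ac Acadvl was the most negative of the 9, at -0.32 (SE 0.20), with 11.4, 17.4, 14.2 and 17.0 kb in Fed and 12.8, 12.9, 12.9 and 9.12 kb in Fast.

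Hadha had the largest H3K27ac difference of the 9 over the whole locus. It encodes the alpha subunit of the trifunctional protein, which carries the hydratase and long-chain hydroxyacyl-CoA dehydrogenase steps (chr5:30119423-30154980). Hadhb, for the beta subunit with the thiolase step, starts 273 bp away and runs in the other direction, so much of the upstream flank of Hadha is the body of Hadhb. H3K27ac covered 3.93, 7.61, 3.79 and 9.08 kb in Fed and 11.2, 14.6, 13.8 and 12.8 kb in Fast, that is 6.10 ± 2.66 kb against 13.1 ± 1.47 kb (SD, n = 4 lists each). Every Fast list exceeded every Fed list. The difference was 1.17 (SE 0.39; exact permutation p = 0.0556, Benjamini-Hochberg adjusted p = 0.583), 1.20 without and 1.15 with tetracycline. Leaving out 1 list at a time gave 0.87 to 1.48, with the lists still separate each time.

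Most of the extra H3K27ac cover at Hadha lay beside the start-site peak. Flank cover averaged 2.20 kb in Fed and 7.22 kb in Fast, body cover 1.84 and 3.55 kb, and gene-end cover 2.06 and 2.35 kb. The start-site region itself averaged 1836 and 2168 bp. The gene ends differed by 0.18, with overlap, and the flanks by 1.75, with separate lists. The region at chr5:30161325-30162860, centred at -7.11 kb inside the Hadhb gene, was covered over 0, 0, 0 and 487 bp in Fed and 1317, 1395, 1031 and 1385 bp in Fast. The region at chr5:30169219-30171651, at -15.5 kb, was in all 8 lists, over 766, 1134, 913 and 895 bp in Fed and 2276, 1792, 1755 and 1251 bp in Fast. Downstream of the start, chr5:30150912-30153936 at 2.56 kb held 0, 1889, 692 and 2229 bp in Fed and 2971, 2911, 2742 and 2633 bp in Fast. In all 3 regions every Fast list was above every Fed list. A further 2 regions, at -10.4 and -12.8 kb, were in 3 Fast lists and no Fed list.

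**Figure D2:**
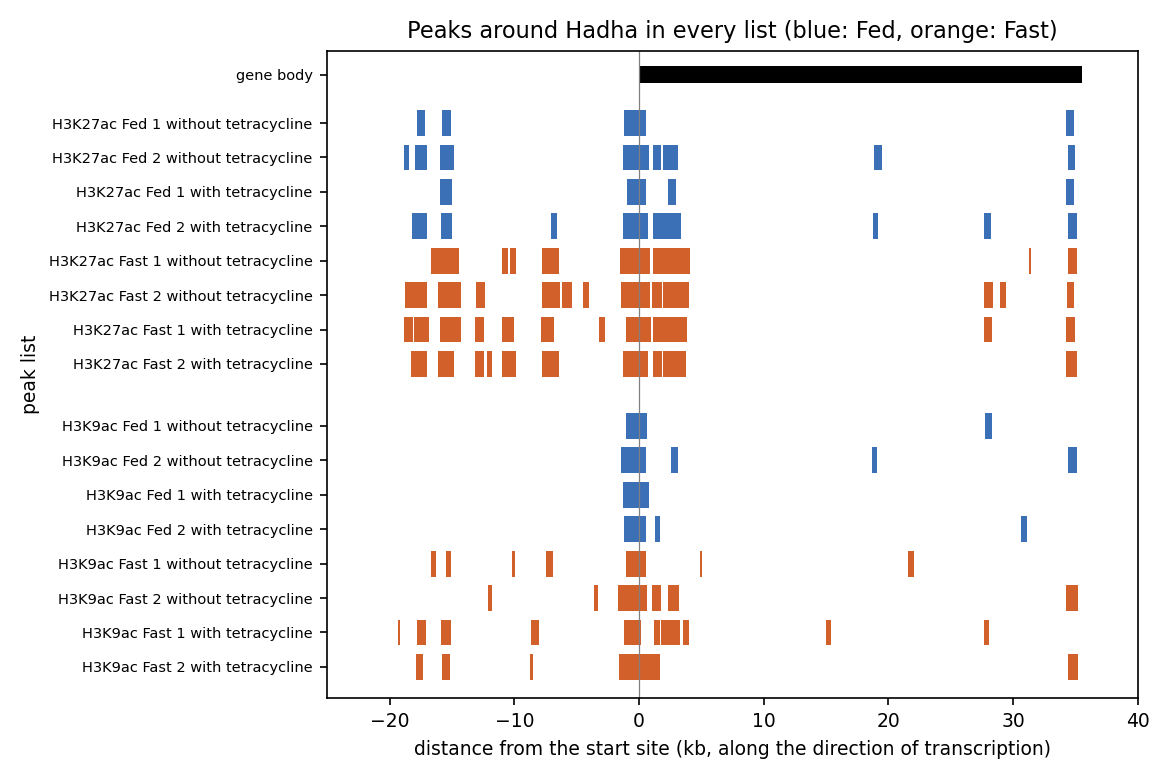
H3K27ac and H3K9ac peaks around Hadha in each of the 16 lists (rows; blue Fed, orange Fast) against the distance from the start site in kb, with the gene body in black. The start-site peak is in every list; upstream of it the H3K27ac Fast rows hold more and wider peaks than the Fed rows.

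H3K9ac at Hadha was also longer in Fast. It covered 2.24, 5.48, 2.69 and 4.51 kb in Fed and 5.89, 7.56, 10.6 and 7.75 kb in Fast, a difference of 1.11 (SE 0.38; exact permutation p = 0.0556, Benjamini-Hochberg adjusted p = 0.844). The lists did not overlap. The flanks alone held 0.045, 2.20, 0.893 and 2.15 kb in Fed and 3.65, 3.47, 6.01 and 4.20 kb in Fast, a difference of 2.0. The gene ends differed by 0.039. Of the 33 H3K9ac regions of the locus, 23 were in 1 list each and 1 in all 8. Genome-wide, 84.4% of H3K9ac regions were in 1 list. The H3K27ac region at -7.11 kb held H3K9ac in 1 Fast list. At -15.5 kb, chr5:30170044-30170859 held H3K9ac in 3 Fast lists and no Fed list. The largest mean gain of a flank region, 481 bp, was at chr5:30072278-30074027, over an end of Tyms. The separation over the locus was lost with equal numbers of top-scoring peaks per list, in the upper 0.5 by score and with peaks of at least 500 bp. Without the lists with over 10% of peaks at 200 bp, 1 Fast list was left, from mice without tetracycline. It stood 1.06 above the Fed lists without tetracycline over the locus and 2.26 above them in the flanks.

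Pdk4 encodes pyruvate dehydrogenase kinase 4, which switches off the entry of pyruvate into the citric acid cycle and so spares glucose when fatty acids are burned (chr6:5483351-5496278). No other protein-coding gene lies in its locus. H3K27ac covered 2.15, 3.75, 3.07 and 3.63 kb in Fed and 8.55, 5.81, 5.82 and 6.50 kb in Fast, that is 3.15 ± 0.730 kb against 6.67 ± 1.30 kb (SD, n = 4 lists each). The lowest Fast list was well above the highest Fed list. The difference was 1.05 (SE 0.24; exact permutation p = 0.0556, Benjamini-Hochberg adjusted p = 0.583), or 2.07-fold on the log2(covered bp + 200) scale, with 1.25 without and 0.84 with tetracycline.

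At Pdk4, 2 H3K27ac regions were present in all 8 lists and had more covered bp in every Fast list. The distal region, chr6:5508753-5511563, is centred at -13.9 kb. It was covered over 1151, 1474, 1030 and 1493 bp in Fed and 2341, 2543, 2369 and 2756 bp in Fast, or 1287 ± 232 bp against 2502 ± 191 bp (SD, n = 4 lists each). The start-site region, chr6:5495271-5497390, was covered over 997, 1433, 1287 and 1110 bp in Fed and 2028, 1510, 1835 and 1751 bp in Fast. The 250 bases printed above for Pdk4 lie inside it. In both regions all Fast lists were above all Fed lists in covered bp. The means differed by 1215 bp in the first and 574 bp in the second. At the start site, Fast 1 with tetracycline reached its sum with 2 peaks, of which the 1 over the start site was 1430 bp wide. The start-site peak of Fed 2 without tetracycline was 1433 bp wide, so the widths of single start-site peaks overlapped. Of the rest, the region at chr6:5442339-5444005, at 53.1 kb, was in 3 Fast lists and no Fed list, with a Fast mean of 890.5 bp, and the region at chr6:5535183-5536618, at -39.6 kb, averaged 655.5 bp in Fed and 1068 bp in Fast. The parts covered by every Fast list and no Fed list were 500 bp and 194 bp at the upstream edge of the distal region and 270 bp upstream of the start site, centred at -0.788 kb.

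**Figure D3:**
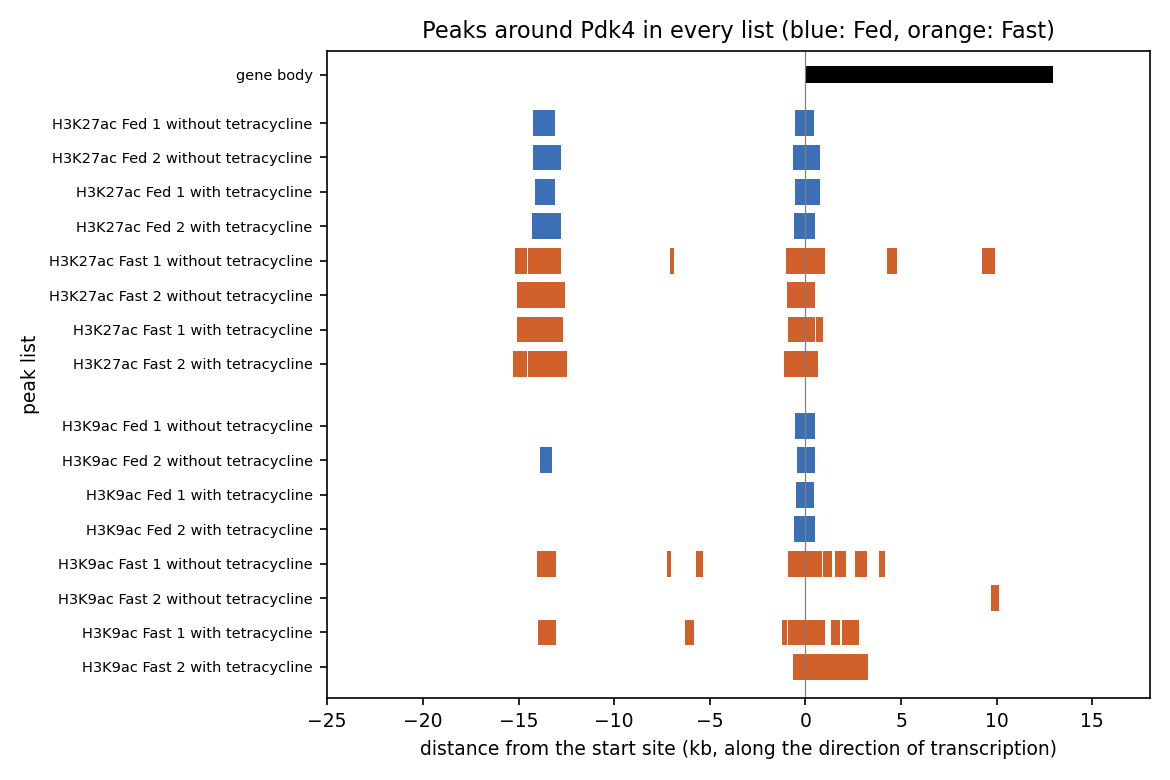
Peaks around Pdk4 in each of the 16 lists (rows; blue Fed, orange Fast) against the distance from the start site in kb, with the gene body in black. The H3K27ac regions at -13.9 kb and at the start site are in every list, with more covered bp in the orange rows. Beyond 1 kb from the gene ends, H3K9ac lies in the body in the Fast rows alone. In 1 Fast row, which has no peak at the start site, it is a single peak at 9.89 kb. No other H3K9ac row holds that peak.

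The H3K9ac lists of Pdk4 were separate by feeding inside the gene but not at its ends. In the body it covered 0 bp in all 4 Fed lists and 1.86, 0.437, 1.32 and 2.25 kb in the Fast lists. The 0.437 kb of Fast 2 without tetracycline was 1 isolated peak, chr6:5486166-5486602, centred 9.89 kb downstream of the start site. No other list of this mark held it, so the body separation rests in that list on a peak not seen again. The body difference was 2.89 (SE 0.46; exact permutation p = 0.0556, Benjamini-Hochberg adjusted p = 0.995), and its size depends on the 200 bp added, since all Fed lists were at 0. Its gene ends were covered over 1.06, 0.955, 0.962 and 1.10 kb in Fed and 1.87, 0, 1.97 and 1.65 kb in Fast, where the list Fast 2 without tetracycline had no peak at either end. That list also set the whole-locus result. With it the cover was 1.06, 1.57, 1.49 and 1.65 kb in Fed and 7.11, 0.881, 5.99 and 4.55 kb in Fast (difference 1.26, SE 0.71; exact permutation p = 0.167), and without it the states were separate and the difference 1.95. Conversely, without the 3 H3K9ac lists with many 200 bp peaks, Fast 2 without tetracycline was the sole Fast list left. Against the Fed lists without tetracycline alone, its difference was -0.46 over the locus and 1.67 in the body. The body value came from the isolated peak named above.

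Angptl4 encodes a secreted inhibitor of lipoprotein lipase and is a known PPAR target (chr17:33774900-33781575). Its H3K27ac cover was 10.6, 17.1, 8.05 and 17.1 kb in Fed and 14.3, 21.4, 18.4 and 22.0 kb in Fast, a difference of 0.57 (SE 0.35; exact permutation p = 0.167). The list Fast 1 without tetracycline lay among the Fed lists. H3K9ac differed inside the gene: its body cover was 0, 0, 0 and 1.01 kb in Fed and 2.07, 1.69, 2.12 and 4.67 kb in Fast. The Fast lists were separate from the Fed lists there and at the gene ends, which held 0, 0.807, 0.777 and 1.01 kb in Fed and 1.37, 1.24, 1.28 and 3.17 kb in Fast. The body and gene-end differences were 3.07 (SE 0.70) and 1.39 (SE 0.66), each with an exact permutation p of 0.0556 and Benjamini-Hochberg adjusted p of 0.995 and 1. With 3 Fed lists at 0 in the body, the size of the first depends on the 200 bp added. A stretch of 519 bp, chr17:33778983-33779501, inside the gene, was covered by H3K9ac in every Fast list and no Fed list.

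**Figure D4:**
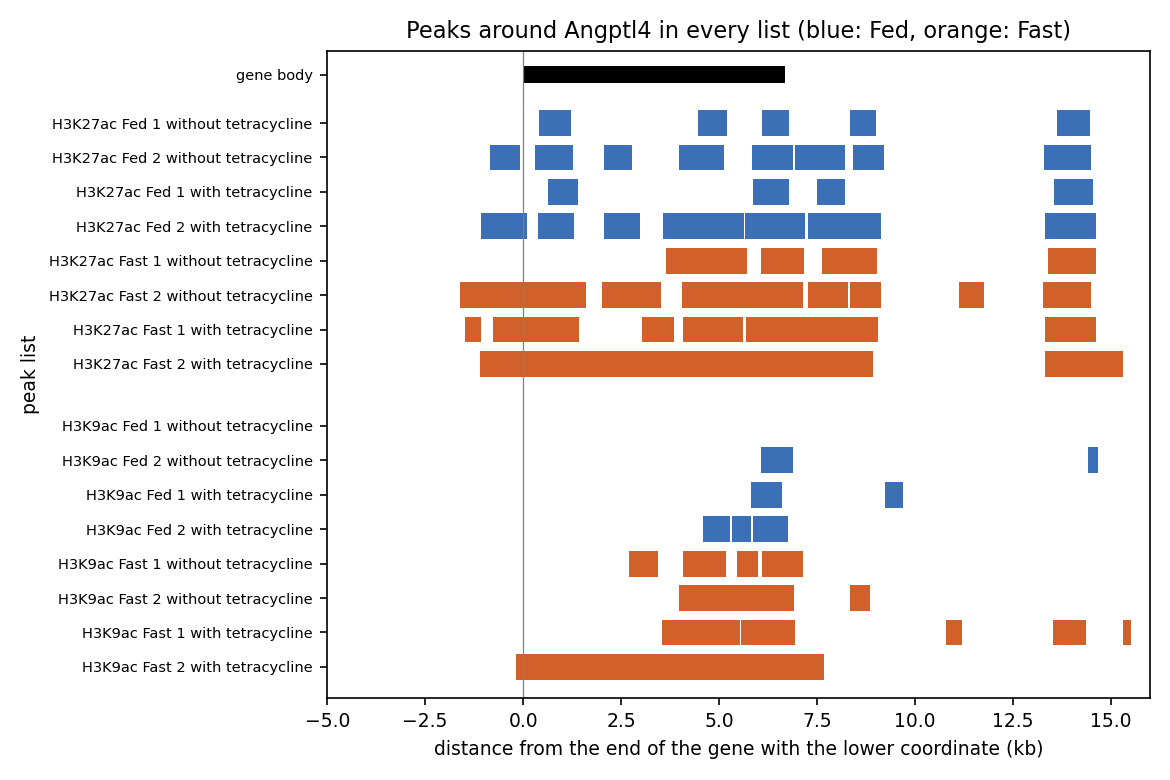
Peaks around Angptl4 in each of the 16 lists (rows; blue Fed, orange Fast) against the distance in kb from the end of the gene with the lower coordinate, with the gene body in black. H3K9ac is absent or short in the Fed rows and extends over the upper part of the gene in every Fast row, while H3K27ac is present in both states.

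Plin2 encodes a coat protein of lipid droplets, the stores from which fatty acids are drawn (chr4:86626910-86670217). H3K27ac covered 7.52, 16.3, 8.67 and 17.0 kb in Fed and 17.2, 18.3, 13.5 and 13.2 kb in Fast, a difference of 0.40 (SE 0.36; exact permutation p = 0.389), with overlap. Of the 6 H3K27ac regions of the locus in all 8 lists, 1 had more covered bp in every Fast list. This was chr4:86689052-86692008, centred at -20.5 kb and in no other protein-coding gene. It held 699, 2139, 633 and 2174 bp in Fed and 2638, 2920, 2362 and 2759 bp in Fast. Regions at -16.2 and -49.2 kb, each in 4 Fast and 2 Fed lists, were outside this comparison. H3K9ac covered 2.89, 5.57, 3.04 and 3.43 kb in Fed and 5.96, 5.46, 5.55 and 6.09 kb in Fast, a difference of 0.65 (SE 0.23; exact permutation p = 0.111). Of the Fed lists, Fed 2 without tetracycline reached the Fast range, and without it the states were separate. Flank cover averaged 2.05 kb in Fed and 3.16 kb in Fast, and body cover 0.467 and 1.27 kb. By list the body held 0.188, 1.14, 0.216 and 0.324 kb in Fed and 1.32, 1.17, 1.04 and 1.56 kb in Fast.

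The parts of the locus are given side by side, with no test between them. Gene-end cover is limited by its 1 kb windows, while start-site peaks of Cpt1a reached 8528 bp, so the gene-end values do not show peak width. At gene ends the median H3K27ac difference of the 9 was 0.058, against 0.082 over all genes, and 1 of the 9, Pdk4, had separate lists, against 3.39% of genes. In bodies the medians were 0.59 and 0.32, and none of the 9 was separate, against 4.41%. In the flanks they were 0.48 and 0.27, and the 3 genes Pdk4, Acadl and Hadha were separate, against 5.4%. For H3K9ac at gene ends the medians were 0.036 and 0.020, and Angptl4 alone was separate, against 0.904%. In bodies they were 1.28 and 0.40, and Pdk4 and Angptl4 were separate, against 2.77%. In flanks they were 0.29 and 0.38, and Hadha was separate, against 3.48%.

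**Figure D5:**
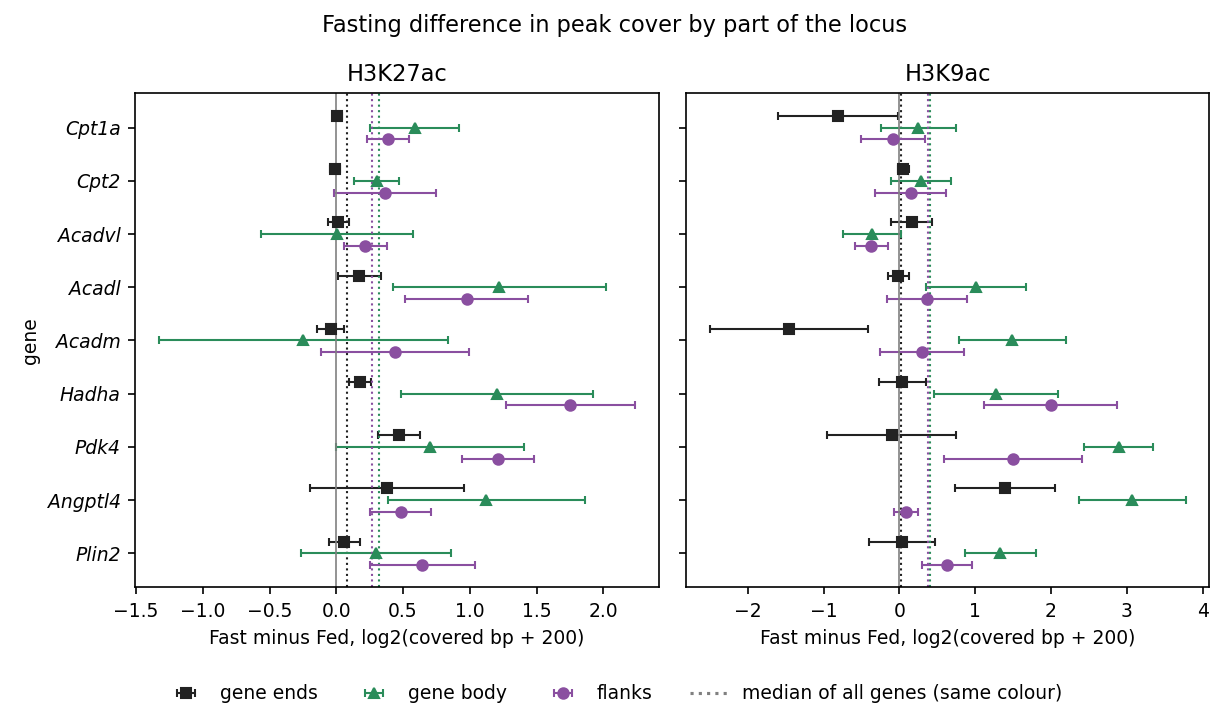
Fast minus Fed difference in log2(covered bp + 200) for each gene (rows) at gene ends (squares), body (triangles) and flanks (circles), with bars of 1 SE from the spread between lists within groups; dotted lines are medians over all genes. Gene-end values of H3K27ac lie between -0.042 and 0.47, while body and flank values reach 1.75; for H3K9ac the body values of Pdk4 (2.89) and Angptl4 (3.07) are the highest.

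Peaks of a mark that overlapped between lists were merged into regions. The 9 loci held 140 H3K27ac regions, of which 35 were in all 8 lists and 60 in 1 list, and 233 H3K9ac regions, of which 13 were in all 8 and 161 in 1. No region of either mark was in all 4 Fast lists and no Fed list, or the reverse. Across the genome 0.4% and 0.0837% of H3K27ac regions were, and 0.0189% and 0.0145% of H3K9ac regions. Likewise 14.6% of 112301 H3K27ac regions and 1.52% of 295928 H3K9ac regions were in all 8 lists. Of the 35 constant H3K27ac regions in the loci, 4 had more covered bp in every Fast list, against 5.04% genome-wide. They were the 2 at Pdk4 and those at -15.5 kb of Hadha and -20.5 kb of Plin2. Of the 13 constant H3K9ac regions none had, against 2.15% genome-wide. No constant region of the loci had less covered bp in every Fast list, against 0.494% (H3K27ac) and 1.06% (H3K9ac) genome-wide. Counted by base, 2670 bp of the 192123 bp with H3K27ac in any list were covered by all Fast and no Fed list, most of them at Hadha (1146 bp) and Pdk4 (964 bp), and 0 bp the other way round. Genome-wide these shares were 0.506% and 0.0921%. For H3K9ac, 560 bp of 184191 bp were covered by all Fast and no Fed list, all at Angptl4, and 40 bp the other way round, with genome-wide shares of 0.0326% and 0.0658%.

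Lists with and without tetracycline were compared likewise, with differences and permutation within each feeding state. Separation was read with Fed and Fast lists together, and it is hard to reach where the feeding states differ. No gene of the 9 had all 4 lists with tetracycline above, or below, all 4 without, for either mark; among all genes 0.139% and 1.33% did for H3K27ac, and 0.243% and 0.145% for H3K9ac. The H3K27ac differences of the 9 ran from -0.21 at Acadm to 0.25 at Acadl, with a median of -0.053 against -0.13 over all genes. Those of H3K9ac ran from -0.14 at Plin2 to 0.60 at Pdk4, with a median of 0.21 against 0.10. Of these 18 differences 2 exceeded 1 SE, that of Acadvl for H3K27ac (-0.20, SE 0.16; exact permutation p = 0.222) and that of Angptl4 for H3K9ac (0.28, SE 0.22; exact permutation p = 0.333). Whether the fasting difference itself depended on tetracycline was tested as the difference between states. For H3K27ac it was positive for 2 of the 9, against 33.5% of all genes, and negative for the other 7, most of all at Acadl (-0.90, SE 0.53; exact permutation p = 0.444), and near 0 at Hadha (-0.045, SE 0.79). For H3K9ac it was positive for 6 of the 9, against 49.4% of all genes, and largest in size at Acadm (-0.73, SE 1.24) and Pdk4 (0.70, SE 1.42). No Benjamini-Hochberg adjusted p for tetracycline or for this interaction was below 1. With 2 lists per group, the errors allow interactions of either sign at most of the 9 genes.

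A wider list of 52 genes of fatty acid oxidation, its control and lipid droplet handling was measured beside the 9. For H3K27ac, 44 of the 52 loci (84.6%) had a positive difference, against 80.9% of all genes, with a median of 0.26, as over all genes. In 5 (9.62%) every Fast list was above every Fed list, against 5.75% of all genes with a peak in their locus. In none was every Fast list below, against 0.139%. The largest were Mgll, the monoglyceride lipase (1.46; 7.99 to 10.03 kb in Fast and 2.12 to 5.08 kb in Fed), Hadhb (0.84; 13.4 to 17.3 kb and 5.67 to 11.5 kb), whose locus overlaps that of Hadha, and Acacb, whose product makes the malonyl-CoA that inhibits carnitine palmitoyltransferase 1 (0.75; 10.5 to 11.9 kb and 4.51 to 8.85 kb). For H3K9ac, 33 of the 52 (63.5%) were positive, against 76.9% of all genes, with a median of 0.35. In 2 (3.85%) every Fast list was above every Fed list, a share near the 3.56% of all genes. They were Hsd17b4, the peroxisomal multifunctional enzyme (1.03, with 2.30 to 3.97 kb in Fast and 1.05 to 1.77 kb in Fed), and Hadhb (0.77). Gene-end H3K27ac was in every list at 35 of the 52 genes, against 33.6% of all genes, and in no list at 6. Of all 21883 genes, 13264 had gene-end H3K27ac in at least 1 list.

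As a description of likeness, the gene on another chromosome whose gene-end cover over the 16 lists ran most closely with each of the 9 was found. For Hadha this was Etfb, a subunit of the electron transfer flavoprotein that accepts electrons from the acyl-CoA dehydrogenases (Pearson r = 0.92). For the others it was Spsb2 with Cpt1a (0.97), Hmga1 with Cpt2 (0.80), Foxn2 with Acadvl (0.91), Ppp2r5d with Acadl (0.84), Birc6 with Acadm (0.995), Tagap1 with Pdk4 (0.95), Irf2bp2 with Angptl4 (0.92) and Tia1 with Plin2 (0.90). Each r is the highest of all genes on other chromosomes. It describes these 16 lists only, which differ in size and of which it is not stated whether they came from different mice.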

How the data were processed

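CUT&Tag of H3K27ac and H3K9ac was measured in 8 samples, 1 per mark and group, each with 2 peak lists deposited by the authors. Each deposited list holds a position, a MACS peak name and a score per peak. The unit of the authors' score is not given, so scores served for ranks and thresholds inside a list and nothing else; strong peaks often share a score, and ties are given. Peaks were called per list, and the names describe the data as downsampled. FastQC, Bowtie, SAMtools and the build mm10 are named in the submitters' processing notes. The peak-calling cutoff and the role of the mouse or rabbit IgG named in the sample titles are not given in the sources used here. Lists were numbered from the deposited names alone.

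From these lists the base pairs covered by peaks were computed for all 21883 protein-coding genes of a RefSeq table (GRCm38.p6, chromosomes 1 to 19, X and Y), in windows of 1 kb around gene ends, in bodies and in flanks of 50 kb. Values were compared as log2(bp + 200) by exact two-sided permutation of labels within strata (36 arrangements), with Benjamini-Hochberg adjustment at 0.05 over all genes with a peak in that part of the locus. The SE comes from the spread between the 2 lists of each group. p-values measure only the spread between lists, which may be technical. Overlapping peaks (at least 1 bp) were merged into regions per mark. The covered lengths and the test were checked on simulated data. All 9 genes are named; of the 52 pathway genes up to 3 per mark and direction with separate lists are named by size of difference. Members, lists and rules were chosen with earlier results of these data known. The regions with more covered bp in every Fast list and the CCAAT and GC box searches were added after the data were seen. So was the leaving out of single lists or of lists rich in 200 bp peaks. Other alternatives were the same number of top-scoring peaks per list, the upper 0.5 by score, widths of at least 500 bp, lists of 1 number left out, a replicate block, scaling to covered length, 1000 bp added, other windows and merging of peaks. Python 3.11.15, numpy 2.4.6, pandas 2.3.3 and matplotlib 3.10.9 were used.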

Additional observations from a re-analysis of the deposited data

How the results depend on the processing

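Depth is unknown, so no limit from counting can be given, and the permutation within tetracycline states could not pass 0.05 as fitted or with lists left out. The H3K27ac differences of Pdk4, Acadl and Hadha over the locus stayed positive under every alternative run, between 0.71 and 1.39, 0.49 and 1.01, and 0.71 and 1.64. The separation of their lists was less stable: Acadl lost it with peaks of at least 500 bp and with flanks of 25 kb, leaving 2 separate genes each, and Acadl and Pdk4 lost it with scaling. For H3K9ac Hadha lost its separation with equal numbers of peaks (Angptl4 was then the 1 separate gene), in the upper 0.5 by score, with peaks of at least 500 bp (Plin2 was then the 1) and with scaling. Of the values recomputed for single genes, 5 turned sign and 135 did not for H3K27ac, and 22 and 118 for H3K9ac. Some of these could not turn: the replicate block leaves every difference as it was, and flanks of 25 kb leave gene-end and body values. The counts also include parts of loci chosen after their values were seen, so they do not measure stability. The cause of a change was not tested.

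Lists of 1 number left out gave wide ranges (from those without list 1 to those without list 2, or the reverse), each with 2 lists against 2. Lists separate more easily with 2 against 2 than with 4 against 4, so these counts cannot be set beside those of all 8 lists. For H3K27ac the median of the 9 ran from 0.13 to 0.80 over the locus and 0.12 to 1.19 in flanks, the separate genes from 4 to 9, and regions found in every Fast but no Fed list from 3 to 9, the reverse from 0 to 4; Cpt2 ran from -0.13 to 0.71, Acadm from -0.21 to 0.66 and Plin2 from -0.099 to 0.90. For H3K9ac the medians ran from -0.16 to 0.85 (locus), 0.36 to 2.1 (body) and -0.38 to 1.04 (flanks), the separate genes from 2 to 8, regions from 1 to 8 and the reverse from 0 to 4; Cpt1a ran from -0.37 to 0.34, Cpt2 from -0.50 to 0.85, Acadl from -0.16 to 0.84, Acadm from -1.001 to 1.05 and Acadvl from -0.65 to 0.012.

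With equal numbers of top-scoring peaks per list, 1 H3K27ac region, at -7.11 kb of Hadha, was Fast alone (in every Fast but no Fed list); for H3K9ac, 2 genes kept a gene-end peak in all 8 lists, 1 region was in all Fed and no Fast lists, the medians were -0.35 (ends) and -0.32 (flanks), and Cpt2 (-0.022), Acadl (-0.093), Acadm (-1.07), Plin2 (-0.38; body -0.91) turned negative. In the upper 0.5 of each list by score there were 2 such H3K27ac regions and 0 separate H3K9ac genes, with Acadm at -0.87 and the Plin2 body at -0.10. With peaks of at least 500 bp there was 1 such region, and H3K9ac at Acadl (-0.0050) and Acadm (-0.15) turned. Where peaks had to cover at least 0.5 of a region, 2 H3K27ac regions (-7.11 and -15.5 kb of Hadha) and 1 H3K9ac region (Angptl4) were Fast alone. Scaling to covered length left 1 and 0 separate genes, gene-end medians of -0.22 and -0.36, and negative values at Acadm (-0.048) and Acadvl (-0.085) for H3K27ac and at Cpt2 (-0.26), Acadl (-0.085) and Acadm (-0.41) for H3K9ac. Flanks of 25 kb gave 2 separate H3K27ac and 2 separate H3K9ac genes, and H3K9ac at Cpt1a turned to 0.076 and at Acadm to -0.023. Without lists rich in 200 bp peaks, 1 Fast list was left for H3K9ac, and differences were taken against the Fed lists without tetracycline alone. The H3K9ac gene-end median was then 0.15, and Cpt1a (0.24), Cpt2 (-0.21) and Pdk4 (-0.46) turned.

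A replicate block that pairs lists of 1 number leaves every difference as it was by construction (median 0.43 for H3K27ac, 0.34 for H3K9ac) and allows no p below 0.125, the value at Pdk4, Acadl and Hadha for H3K27ac. Deviations of lists with 1 number correlated over genes between the paired groups by 0.21 and 0.15 for H3K27ac and by -0.087 and -0.097 for H3K9ac. Between groups that the block does not pair, they correlated by 0.091 to 0.28 for H3K27ac and by -0.11 to 0.25 for H3K9ac. The labels give no pairing.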
